A study of Mus musculus with 6 samples.

Results

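Collagens other than type IV were followed in single cells of the developing mouse lung. The gene set was every symbol of the deposited feature list written as Col, a number, a and a number, without Col4a1 to Col4a6, and held 38 of 31053 features. Its members were chosen by name, not by level. Of the 38, 29 reached 10 CPM (unique molecular identifiers, UMIs, per 1000000 UMIs of the cells summed) in at least 1 of the gates and cell classes described here. Of the other 9, 6 reached it in a finer population and 3 in none.

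The data were 6 libraries of dissociated mouse lung, with 1 library per group. Lungs carrying a DsRed reporter in place of 1 Cxcl12 copy (Cxcl12DsRed/+) gave 4 sorted libraries, 3 from embryos (E13.5, then E15.5, then E18.5, by embryonic day) and 1 from pups of postnatal day 8 (P8). Cells were sorted on the reporter, without CD45 and EpCAM. The sequenced ECs are described as the CD31+ fraction, which would leave out the mesenchymal cells analysed here, and the protocol also collected a CD31- mesenchymal-enriched fraction. Which fractions went into each library is not given in the sources used here, and mesenchymal cells without the reporter were outside both. Whole lungs at E18.5 gave a library labelled control (Cxcl12DsRed/+) and a library labelled null (Cxcl12DsRed/DsRed), in which no Cxcl12 should be made because the reporter sits in its first exon. Every animal carried at least 1 reporter copy, and no library was of wild-type lung.

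Cxcl12 itself went against the labels of the whole lungs. It stood at 190.6 CPM in the library labelled null and at 1.27 CPM (96 UMIs) in the library labelled control, and the names of the deposited files also gave the opposite genotypes. Groups are therefore called the library labelled null and the library labelled control throughout, and every direction between them rests on those labels. Each library held 8845 to 13098 barcodes and 63746333 to 117522172 UMIs. Filters on genes per cell and mitochondrial UMIs left 7448 to 12726 cells. Pairs of libraries shared 16 to 50 barcodes. With 1 library per group no test between groups was possible. Intervals are exact 95% Poisson intervals of the UMI counts, or the interval of the ratio of 2 such counts, and cover counting error only.

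Collagens are trimers of chains wound into a triple helix. The fibrillar types I, II, III, V and XI assemble into the fibres that give tissue its tensile strength, and type V chains set how wide those fibres grow. Types IX, XII, XIV and XVI sit on fibre surfaces, type VI forms beaded filaments, types XV and XVIII lie beside basement membranes, and types XIII, XVII, XXIII and XXV span the plasma membrane. In the lung, fibroblasts are the main source of fibrillar collagen, whereas vessels rest on a basement membrane of which type XVIII, the parent of endostatin, is a part.

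The regions before the annotated starts of 3 genes are shown because their products took the most unlike patterns below: Col18a1 and Col15a1, the members higher in ECs, and Col3a1, a fibrillar gene of mesenchymal cells. Sequences are from RefSeq, build GRCm38.p6, and 30 of the 38 members had an entry. Col18a1 has 2 entries, and the one at its most upstream start is shown, at chr10:77166549-77166780 on the minus strand, without 18 bases that lie in an exon. Col3a1 is at chr1:45311288-45311537 and Col15a1 at chr4:47207762-47208011, both on the plus strand. The Col15a1 region ends short of the gene start given in the next paragraph (47208161), and the bases between were not searched. Capitals mark, on either strand, the letters CCAAT of the CCAAT box, TATAAA of the TATA box and GGGCGG of the GC box.
Col18a1: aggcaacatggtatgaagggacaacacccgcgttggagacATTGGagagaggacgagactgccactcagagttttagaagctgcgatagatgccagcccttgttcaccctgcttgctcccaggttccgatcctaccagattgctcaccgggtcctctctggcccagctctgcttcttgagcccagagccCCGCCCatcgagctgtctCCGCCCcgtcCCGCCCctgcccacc
Col3a1: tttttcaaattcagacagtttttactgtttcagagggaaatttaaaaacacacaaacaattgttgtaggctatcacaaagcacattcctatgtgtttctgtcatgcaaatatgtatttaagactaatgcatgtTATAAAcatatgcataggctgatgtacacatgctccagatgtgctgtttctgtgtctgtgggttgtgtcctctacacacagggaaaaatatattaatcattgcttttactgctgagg
Col15a1: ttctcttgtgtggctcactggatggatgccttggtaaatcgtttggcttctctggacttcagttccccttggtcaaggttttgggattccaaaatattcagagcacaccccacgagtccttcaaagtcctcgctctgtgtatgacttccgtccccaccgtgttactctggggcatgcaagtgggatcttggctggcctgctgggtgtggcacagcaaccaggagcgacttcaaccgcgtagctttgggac
The Col18a1 region held 1 CCAAT and 3 GGGCGG matches and was 60.8% G and C. The Col3a1 region held 1 TATAAA match and was 35.2% G and C, and none of the 3 motifs was found in the Col15a1 region. Over all 32851 promoters in windows of 250 bases, CCAAT was present in 33.8%, while TATAAA was present in 12.4% and GGGCGG in 32.7%. Among the 30 members these numbers were 10, 5 and 18. A match describes letters and not a binding site.

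Col18a1 (ENSMUSG00000001435, chr10:77052178-77166548, minus strand) and Col15a1 (ENSMUSG00000028339, chr4:47208161-47313167, plus strand) lie on different chromosomes. Col3a1 and Col5a2 lie 24614 bases apart on chromosome 1, and Col6a1 and Col6a2 lie 85161 bases apart on chromosome 10, with 0 protein-coding genes between either pair. Col6a1 lies 326009 bases from Col18a1 on the same strand, with 1 protein-coding gene between them. No member shared a stretch of 60 bases in the last 300 bases of its transcripts with another gene, and 11 overlapped another gene on the same strand. The Slc19a1 and Gm7775 genes overlap Col18a1 on the other strand.

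To separate endothelial from mesenchymal collagen in the sorted libraries, cells were gated on UMIs. ECs held at least 2 UMIs of Pecam1 and Cdh5 and 0 of Pdgfra, and mesenchymal cells at least 1 UMI of Pdgfra and Tcf21 and 0 of Pecam1 and Cdh5. The endothelial gate took 187, 9245, 9052 and 8232 cells in order of age. The mesenchymal gate took 8002, 732 and 166 cells at the embryonic ages and 40 at P8, which is too few for a ratio. Neither gate took 4537, 1672, 324 and 179 cells in order of age, so the mesenchymal gate is not all mesenchyme of a library. Col1a1 stood at 1018, 2727, 2446 and 440 CPM in these ungated cells. In the mesenchymal gate it was at 1095, 4384 and 5924 CPM at the embryonic ages. The sampled cells thus turned from mostly mesenchymal at E13.5 to mostly endothelial, and the E13.5 endothelial values rest on the fewest ECs.

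The number of these collagens at 10 CPM in ECs was highest at E13.5 and lowest at P8. Of the 38 members 13, 8, 8 and 3 stood at 10 CPM or more in ECs of the successive ages, and at P8 Col5a2, Col15a1 and Col18a1 remained. Among all features 26%, 25%, 26.2% and 25.8% reached that level at the same ages. In mesenchymal cells 21, 23 and 20 members reached it in the embryonic libraries, against 26.4%, 26.3% and 27.3% of all features. The 13 endothelial members of E13.5 became 7 without cells that Scrublet marked as doublets, and the 8 at E15.5 and 8 at E18.5 became 5 each without clusters holding fibroblast genes. Summed over the members, ECs held 1553, 880, 348 and 201 CPM from E13.5 to P8, whereas mesenchymal cells held 4967, 14060 and 19535 CPM at the embryonic ages. The type IV chains, which form the basement membrane network and were left out of the group, summed to 1297, 1365, 1443 and 1737 CPM in the same ECs.

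Col18a1, which encodes the type XVIII chain of vascular and epithelial basement membranes, was the most abundant member in ECs of every embryonic library. In order of age it stood at 714 CPM (672 to 759), 421 CPM (417 to 425), 121 CPM (118 to 123) and 21.8 CPM (20.6 to 23.0). Each library lay below the one before it, and no intervals overlapped. The difference was 1.70-fold between E13.5 and E15.5, 3.49-fold between E15.5 and E18.5, and 5.54-fold between E18.5 and P8. Over the same embryonic ages mesenchymal cells went the other way, with Col18a1 at 5.73, 30.1 and 48.9 CPM. The E15.5 value was 18.8 CPM without 191 cells of a cluster led by heart muscle genes. ECs thus exceeded mesenchymal cells 125-fold (111 to 141) at E13.5, 14-fold (12.1 to 16.3) at E15.5 and 2.47-fold (1.95 to 3.16) at E18.5. With the mean of single-cell CPM the last difference was 0.90 on the log2 scale, short of a call.

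The share of ECs with a Col18a1 UMI followed the level. In order of age it was 96.3%, 91.0%, 40.1% and 12.6%, at median depths of 6802, 8534, 5671 and 5659.5 UMIs per EC. Thinned to 2000 UMIs per cell, the shares were 73.9%, 53.8%, 18.9% and 4.42%, against 1.06%, 5.81% and 10.95% in mesenchymal cells of the embryonic libraries. Col18a1 was spread over many ECs, since the top 1% of cells of the embryonic libraries held 3.26%, 5.20% and 13.3% of its UMIs.

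Col15a1, which encodes the type XV chain found next to basement membranes of capillaries and muscle, was lowest in ECs at E13.5. In order of age its levels were 11.6 CPM (6.78 to 18.6), 37.1 CPM (35.8 to 38.3), 23.2 CPM (22.0 to 24.5) and 25 CPM (23.7 to 26.2). The E15.5 level was 3.18-fold (1.99 to 5.47) that of E13.5, and the intervals at E18.5 and P8 overlapped. The E13.5 level rests on 17 UMIs in 8 of 187 ECs, of which 1 cell held 9 and the top 2 cells 64.7%. In mesenchymal cells Col15a1 was at 2.01, 9.49 and 17.2 CPM. It was higher in ECs by 5.77-fold (3.27 to 9.60) at E13.5 and 3.90-fold (3.02 to 5.14) at E15.5, whereas at E18.5 the ratio of 1.35 (0.909 to 2.09) included 1. At a minimum of 50 CPM neither of the first 2 differences was called, and the E13.5 one rests on the few cells named above.

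Col5a2, a chain of fibril-initiating type V collagen, was the fibrillar gene with the highest endothelial level after E13.5. It stood in ECs at 163 CPM (143 to 185), 139 CPM (136 to 141), 54.6 CPM (52.7 to 56.5) and 109 CPM (106 to 112) from E13.5 to P8. The E18.5 level was the lowest of the 4, 2.54-fold under E15.5, and the P8 level was above it by 0.99 on the log2 scale, just short of a call, and by 1.07 without Scrublet doublets, past it. Mesenchymal cells held 300, 409 and 442 CPM. Their excess over ECs was 1.84-fold (1.62 to 2.10) at E13.5, 2.95-fold at E15.5 and 8.09-fold at E18.5, the smallest among the 5 type I, III and V chains Col1a1, Col1a2, Col3a1, Col5a1 and Col5a2 at each age.

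**Figure D1:**
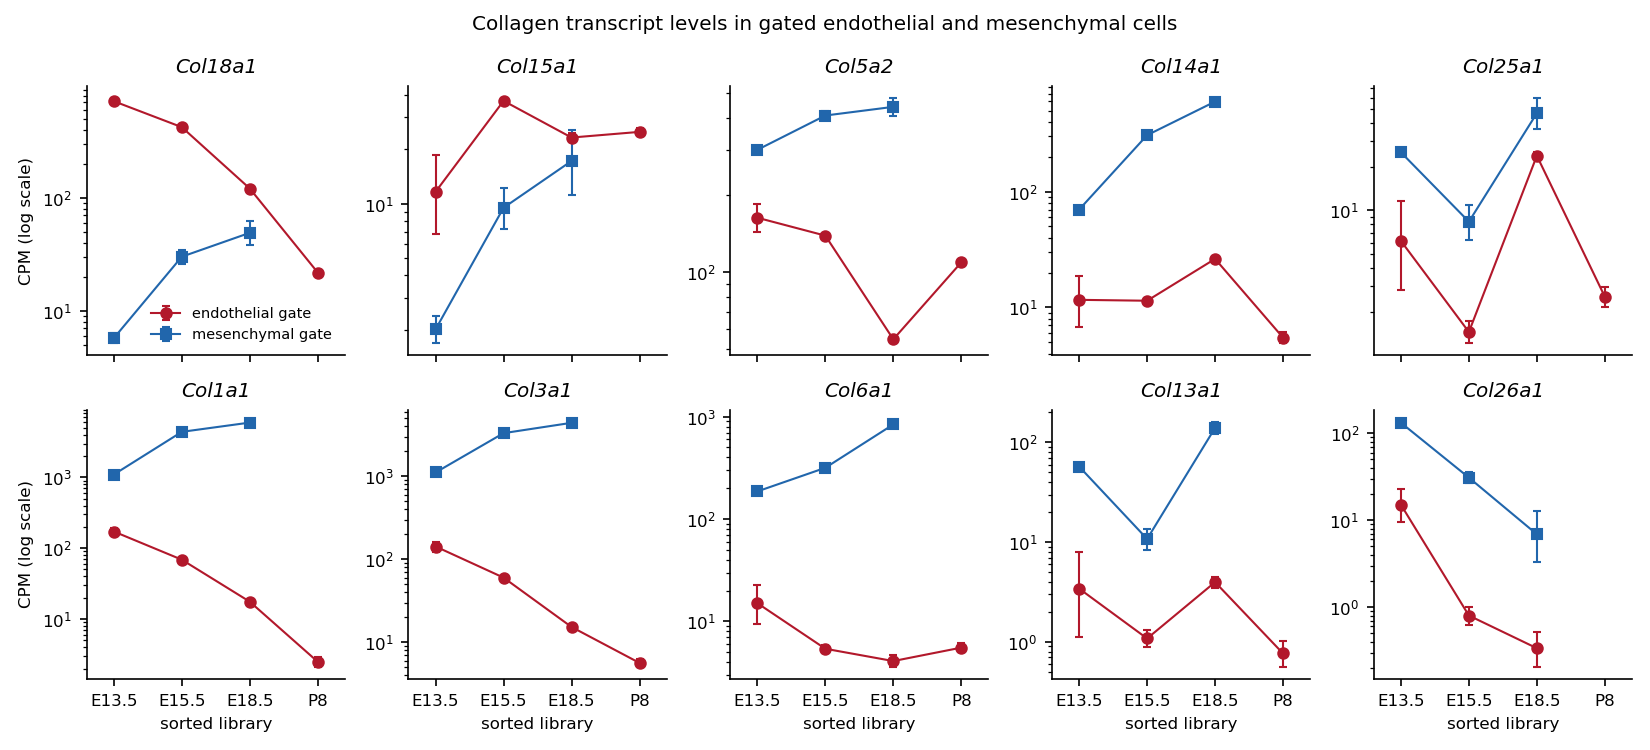
CPM on a log axis (vertical) at each age of the sorted libraries (horizontal) for 10 members, with red circles for the endothelial gate, blue squares for the mesenchymal gate and bars for 95% Poisson intervals. Mesenchymal cells at P8 (40 cells) and Col26a1 in P8 ECs (0 UMIs) are not drawn, and endothelial Col18a1 descends from 714 to 21.8 CPM while endothelial Col15a1 lies between 11.6 and 37.1 CPM.

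The type I and III genes Col1a1, Col1a2 and Col3a1, the main fibre-forming collagens of connective tissue, were low in ECs from E15.5 on. Col1a1 stood at 172, 68.8, 17.6 and 2.49 CPM in ECs from E13.5 to P8, Col1a2 at 157, 79.6, 21.9 and 5.34 CPM, and Col3a1 at 142, 59.98, 15.2 and 5.62 CPM. For each gene every age was below the one before, in the case of Col1a1 by 2.50-fold, 3.92-fold and 7.04-fold. The share of ECs with a Col1a1 UMI was 40.6%, 9.30%, 2.36% and 0.522% in order of age, and the top 1% of ECs held 29.9%, 66.0% and 88.2% of its UMIs in the embryonic libraries.

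The sum of 4 fibroblast genes, picked after the data were seen, fell with these endothelial values. That of a full list of 20 mesenchymal markers fell from E13.5 to E15.5 and rose afterwards. Dcn, Lum, Ogn and Postn together stood at 122, 52.6, 9.57 and 3.31 CPM in ECs from E13.5 to P8 and at 961, 3988 and 2991 CPM in embryonic mesenchymal cells. Of a list of 20 mesenchymal markers 18, 19, 20 and 16 had a UMI in ECs, with summed levels of 1178, 638, 825 and 1259 CPM, and ECs are known to express 4 of them themselves (Foxf1, Fbn1, Mfap2 and Ebf1). The median ratio of ECs to mesenchymal cells over the list was 0.174, 0.0386 and 0.0145 at the embryonic ages. That of Col1a1 was 0.157, 0.0157 and 0.00296, that of Col3a1 0.128, 0.0181 and 0.00346, and that of Col5a2 0.543, 0.339 and 0.124. Col1a1 and Col3a1 thus lay at or below the list's median at every embryonic age and Col5a2 above it. The part of free RNA or doublets in the endothelial values was not tested.

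When clusters holding 100 CPM or more of those 4 genes were left out, a setting chosen after seeing the data, Col1a1 in ECs was 9.12, 3.92 and 1.60 CPM from E15.5 to P8. Col3a1 was then 20.5, 7.24 and 4.48 CPM. Col18a1 was 426, 119 and 21.8 CPM and Col5a2 135, 53.1 and 109 CPM, close to the values over all ECs. The 187 ECs of E13.5 were not clustered. Among the 135 of them without a UMI of Dcn, Lum, Ogn or Postn, Col1a1 was 82.4 CPM, Col3a1 67.1 CPM, Col5a2 156 CPM and Col18a1 722 CPM.

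To ask how the 2 compartments divided the collagens, ECs were set beside mesenchymal cells of the same library. A member was called when its levels differed 2-fold and reached 10 CPM in either gate. At E13.5, 22 of 23 members were called, 2 higher in ECs and 20 higher in mesenchymal cells, against 23.2% of all genes at that level (11.7% and 11.5% by direction). At E15.5 all 24 were called, 2 and 22 by direction, against 25.7% (11% and 14.6%). At E18.5, 18 of 20 were called, 1 and 17 by direction, against 30.5% (14.5% and 16%). Members higher in ECs were Col18a1 and Col15a1 at E13.5 and E15.5, and Col18a1 at E18.5.

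The median log2 ratio of ECs over mesenchymal cells among the members was -2.54, -4.64 and -5.45 at the 3 ages, against -0.03, 0.03 and 0.07 over all genes at that level. By E18.5 mesenchymal cells exceeded ECs 337-fold for Col1a1, 289-fold for Col3a1 and 282-fold for Col6a2. At E13.5 the same ratios were 6.38, 7.82 and 9.19, at E15.5 63.8, 55.2 and 59.9. Col13a1, a transmembrane collagen of cell-matrix junctions, had the largest mesenchymal excess at E13.5, 16.7-fold, followed by Col6a1 with 12.4-fold and Col23a1 with 9.55-fold. The place of Col13a1 rests on a low endothelial level of 3.42 CPM. With a pseudocount of 5 CPM Col6a1 would be ahead of it. Col25a1, another transmembrane collagen, was not called at E18.5, where mesenchymal cells held 1.97-fold the endothelial level. A decline of endothelial levels and an increase of mesenchymal levels both entered these ratios.

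Across age in ECs, 9 of 13 members were called between E13.5 and E15.5 (1 higher at E15.5, 8 lower) against 7.14% of all genes (2.72% and 4.42%). Col15a1 was the higher one. The largest differences among the lower ones were those of Col26a1 (15.1 CPM at E13.5 and 0.801 CPM at E15.5, 18.8-fold), Col11a1 (19.2 and 1.06 CPM, 18.1-fold) and Col6a2 (20.5 and 3.42 CPM, 6.004-fold). Each of these 3 was higher in mesenchymal cells of E13.5, at 132, 87.4 and 189 CPM. Without cells that Scrublet marked as doublets 3 members were called, and without ECs holding a UMI of Dcn, Lum, Ogn or Postn 4 were, so that most of the E13.5 calls did not hold outside the full gate.

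Between E15.5 and E18.5, 7 of 9 members were called in ECs (2 higher at E18.5, 5 lower) against 13.8% (9.05% and 4.77%). The higher ones were Col25a1, at 1.45 CPM (E15.5) and 23.8 CPM (E18.5), 16.4-fold (13.8 to 19.8), and Col14a1, a fibril-associated collagen, at 11.4 and 26.2 CPM, 2.30-fold. Both were again lower at P8, at 2.54 CPM for Col25a1 and 5.49 CPM for Col14a1. Without the clusters holding fibroblast genes Col25a1 stood at 1.30, 24.2 and 2.55 CPM from E15.5 to P8, and Col14a1 at 6.59, 24.5 and 5.46 CPM. In the full gate neither gene was called higher at E18.5 with a minimum of 50 CPM. Col14a1 was also not called with a pseudocount of 5 CPM.

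Between E18.5 and P8, 6 of 8 members were called in ECs, 0 higher and 6 lower, against 8.43% of all genes (4.21% higher and 4.22% lower). The 6 included Col25a1 with a 9.37-fold and Col18a1 with a 5.54-fold difference. Col15a1 and Col5a2 were the 2 not called. Between E15.5 and P8 directly, 5 of 8 were called, all lower at P8, against 20.8% in either direction and 7.26% lower, with Col18a1 19.3-fold lower. The median log2 ratio of the members was -1.24, -1.34 and -2.05 over the 3 steps.

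To place these levels within the endothelium, ECs of each library from E15.5 on were clustered without collagen genes and named from marker lists (gCap, general capillary; aCap, aerocyte; maEC1 and maEC2, proximal and distal arterial). A name did not cover like clusters at each age. The gCap-like cells of E15.5 were a cluster led by the S-phase genes Ccne2, Cdc6 and Clspn. The maEC2-like cells of P8 were a cluster led by Esm1, while 1079 P8 ECs led by Gm9946, Atp13a3, Adgrg6, Fmo2 and Ptprr, genes that led the main maEC2-like clusters of E15.5 or E18.5, were left unnamed. Among the named populations Col5a2 was highest in maEC1-like ECs, at 575, 113 and 691 CPM from E15.5 to P8, against 36.2, 36.7 and 45.7 CPM in gCap-like ECs. There were 1064, 921 and 328 maEC1-like cells behind these values. At E18.5, 714 of the 921 cells formed a cluster led by S100a4, Plek2 and Ptprr, and S100a4 and Ptprr also led a maEC2-like cluster of E15.5. Col5a2 stood at 97.7 CPM in that cluster and at 165 CPM in the other 207 cells. In the unnamed arterial cluster of P8 it was at 356 CPM. Col3a1 also had its highest named endothelial level in maEC1-like ECs of E15.5 (121 CPM) and P8 (57.1 CPM), and Col8a1, a short-chain collagen of vessel walls, stood there at 36.3 and 42.8 CPM at E15.5 and E18.5.

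Col18a1 was highest in systemic-type capillary-like ECs at E15.5, with 838 CPM, and in lymphatic-like ECs at E18.5, with 523 CPM (109 cells), when systemic-type capillary-like ECs held 325 CPM. The distal arterial maEC2-like ECs held 600, 158 and 20.1 CPM from E15.5 to P8, the gCap-like ECs 236, 59.7 and 12.9 CPM and the maEC1-like ECs 358, 155 and 78.4 CPM. The unnamed P8 cluster with the arterial genes held 56.5 CPM, above the 20.1 CPM of the maEC2-like cells of that age. Each later age was lower under all 3 names, but the cells compared were of unlike clusters. At P8 maEC1-like ECs were the highest of the named populations. In proliferating-like ECs Col18a1 stood at 288, 56.6 and 9.56 CPM.

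Col15a1 was higher in gCap-like than in maEC2-like ECs, at 53.7, 38.5 and 32.0 CPM against 19.9, 7.80 and 21.7 CPM in order of age. At P8 the unnamed cluster with the arterial genes held 3.88 CPM, so the maEC2-like values by age are of different cells. Systemic-type capillary-like ECs held 125 CPM at E18.5 (266 cells). Col25a1 at E18.5 was highest in aCap-like ECs, at 67.5 CPM (1077 cells), with 29.7 CPM in gCap-like ECs, and at P8 aCap-like ECs held 3.91 CPM (1020 cells). Col14a1 at E18.5 was highest in gCap-like ECs, at 46.2 CPM, against 8.11 CPM at E15.5 and 5.95 CPM at P8. Both were thus highest in capillary-like ECs at E18.5, but Col25a1 also stood at 16.5 CPM in maEC2-like and 18.9 CPM in proliferating-like ECs, and Col14a1 at 20.1 CPM in maEC1-like, 17.0 CPM in lymphatic-like and 42.0 CPM in proliferating-like ECs. Col23a1, a transmembrane collagen, reached 85.9 CPM in lymphatic-like ECs of E18.5 and 7.74 CPM in maEC1-like ECs of the same library.

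**Figure D2:**
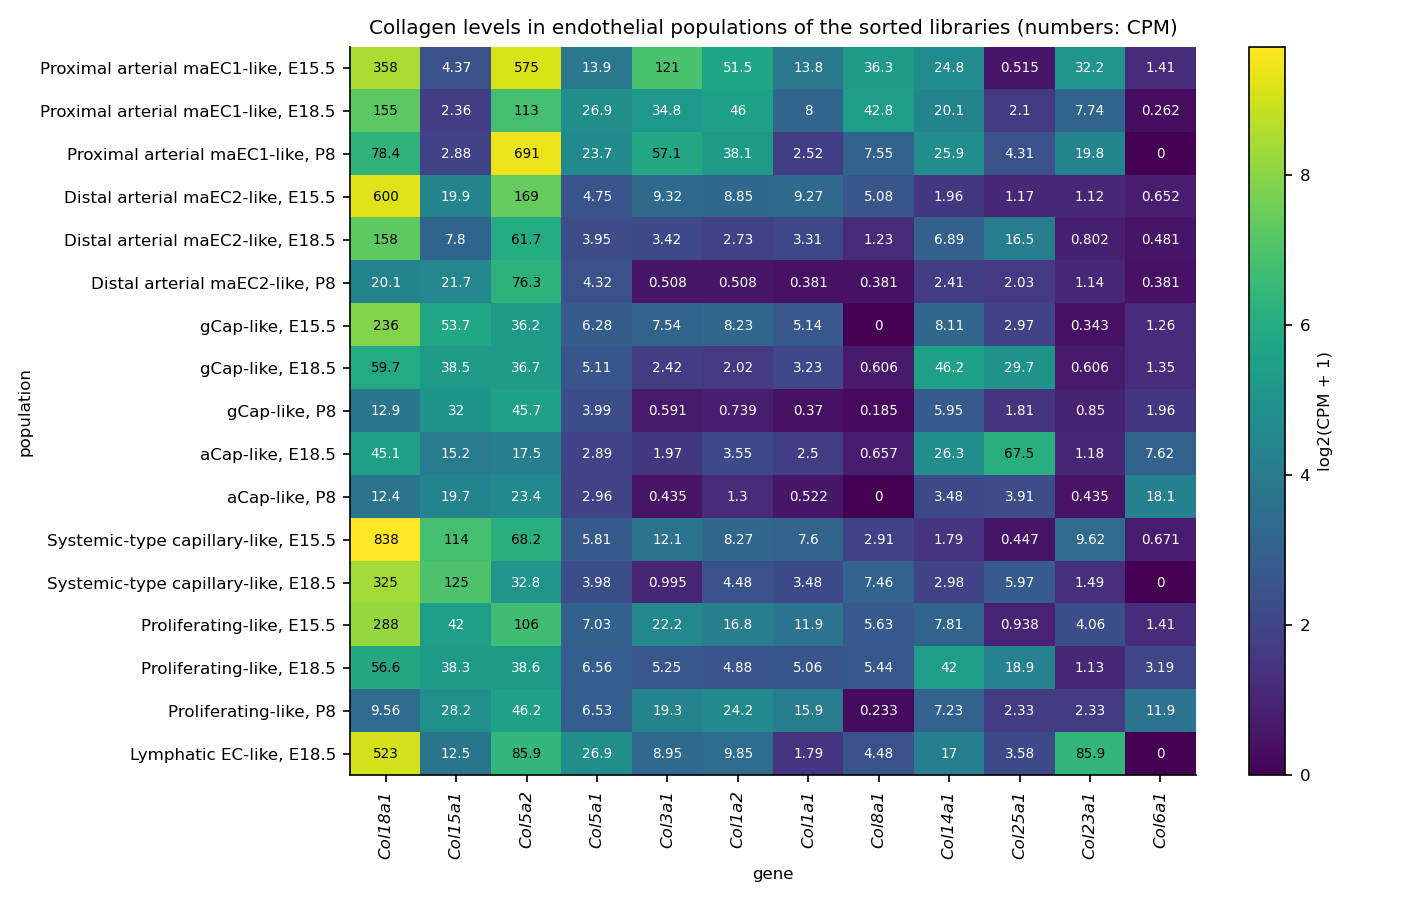
Heat map of 12 collagen genes (columns) in the endothelial populations of the sorted libraries from E15.5 to P8 (rows). Numbers give CPM, and colour gives CPM on a log scale. Col5a2 is highest in maEC1-like ECs (575, 113 and 691 CPM), Col18a1 at E15.5 in systemic-type capillary-like ECs (838 CPM) and Col25a1 in aCap-like ECs of E18.5 (67.5 CPM).

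In mesenchymal cells the type I, III and V genes were higher at E15.5 than at E13.5, whereas the fibrillar Col11a1 was lower, at 87.4, 47.6 and 25.5 CPM over the embryonic ages. From the youngest to the oldest embryos Col1a1 stood at 1095, 4384 and 5924 CPM, Col1a2 at 1125, 3805 and 5029 CPM, and Col3a1 at 1113, 3312 and 4412 CPM. The step from E13.5 to E15.5 was 4.003-fold for Col1a1, and each gene was again higher at E18.5, by less than 2-fold. Col5a1 was at 154, 420 and 407 CPM, and Col5a3, the third type V chain, at 1.28, 26.5 and 52.4 CPM, with the first step 20.8-fold (15.9 to 27.3). Col5a2, at 300, 409 and 442 CPM, was the fibrillar gene of these 6 that changed least over the embryonic ages.

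Of 24 members at the level minimum 15 were called between E13.5 and E15.5, 11 higher at E15.5 and 4 lower, against 10.8% of all genes (7% and 3.82%). After Col5a3 the largest differences upward were those of Col18a1 (5.25-fold) and of the fibril-associated Col14a1, which stood at 70.0, 307 and 598 CPM (4.39-fold). The place of Col18a1 rested on the E15.5 cluster led by heart muscle genes, and without it the log2 ratio was 1.63 for Col18a1 against 2.12 for Col14a1 and 2.09 for Col1a1. The 4 lower ones were Col13a1 (57.3 and 10.8 CPM, 5.31-fold), Col23a1 (91.5 and 20.3 CPM, 4.52-fold), Col26a1 (132 and 30.9 CPM, 4.28-fold) and Col25a1 (25.2 and 8.36 CPM, 3.01-fold). Of these, Col13a1, Col23a1 and Col25a1 are transmembrane collagens, whereas Col26a1 encodes a secreted protein.

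Between E15.5 and E18.5, 11 of 25 members were called, 4 higher and 7 lower, against 14.7% (9.79% and 4.91%). A mesenchymal gate of 2 UMIs gave 17 calls (7 and 10) and a minimum of 50 CPM gave 5 (3 and 2). Col13a1 stood at 140 CPM at E18.5, 12.98-fold above E15.5, and Col25a1 at 46.8 CPM, 5.60-fold above. The type VI filament genes Col6a1 and Col6a2 were at 186, 317 and 840 CPM and 189, 205 and 717 CPM over the 3 ages, the last step 2.65-fold and 3.50-fold. Col6a3 was at 83.9, 260 and 504 CPM. Type IX collagens, known from cartilage, were lower at E18.5. Col9a1 was at 20.6, 40.4 and 0.689 CPM (1 UMI at E18.5), Col9a2 at 33.3, 35.5 and 6.20 CPM, and Col9a3 had 0 UMIs at E18.5, at least 8.71-fold under its 18.01 CPM at E15.5 when 3 UMIs are taken as the limit of detection, or at least 5.73-fold under 11.8 CPM without the cluster of heart muscle genes. Col8a2 likewise had 0 UMIs, at least 6.30-fold under 13.03 CPM. Col12a1 stood at 56.4, 80.9 and 22.0 CPM, and Col26a1 at 6.89 CPM at E18.5.

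The mesenchymal gate did not hold the same mixture at each age. Adventitial fibroblast-like cells were 451 of 8002 at E13.5 and 266 of 732 at E15.5, alveolar fibroblast-like cells 804 and 83, and no population of the 166 cells of E18.5 was resolved. At E15.5, 191 of the 732 cells (26.1%) formed an unnamed cluster led by the heart muscle genes Myl2, Myl3, Tnnt2 and Actc1 with the mesothelial gene Upk3b, and Tnnt2 stood there at 1057 CPM. Col1a1 was at 3306 CPM and Col18a1 at 71.9 CPM in that cluster. Without it, a setting chosen after seeing the data, E15.5 mesenchymal cells held Col1a1 at 4674 CPM, Col3a1 at 3362 CPM and Col5a2 at 411 CPM, Col18a1 at 18.8 CPM (30.1 with it), Col9a1 at 24.1 CPM (40.4) and Col9a3 at 11.8 CPM (18.01). Calls of E15.5 over E13.5 then numbered 14 (10 higher, 4 lower) and those of E18.5 over E15.5 14 (7 and 7). Tcf21, a gate gene of the alveolar lineage, stood at 128, 70.1 and 645 CPM. Within adventitial fibroblast-like cells Col1a1 was 3383 CPM at E13.5 and 6956 CPM at E15.5, and Col3a1 2836 and 5031 CPM. Within alveolar fibroblast-like cells Col1a1 was 697 and 997 CPM, and Col13a1 116 and 76.7 CPM. These fold differences are smaller than over the whole gate, but the adventitial fibroblast-like cells were not made of like clusters. At E15.5, 196 of the 266 formed a cluster led by Cxcl13, Egfl6, Dkk2 and Crabp1, genes that led unnamed clusters of E13.5 (Col1a1 at 1540 and 1368 CPM), while the E13.5 cluster was led by Atp1b1, Ecm1, Dcn and Lum. The part of the mixture in the gate's differences was not tested.

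**Figure D3:**
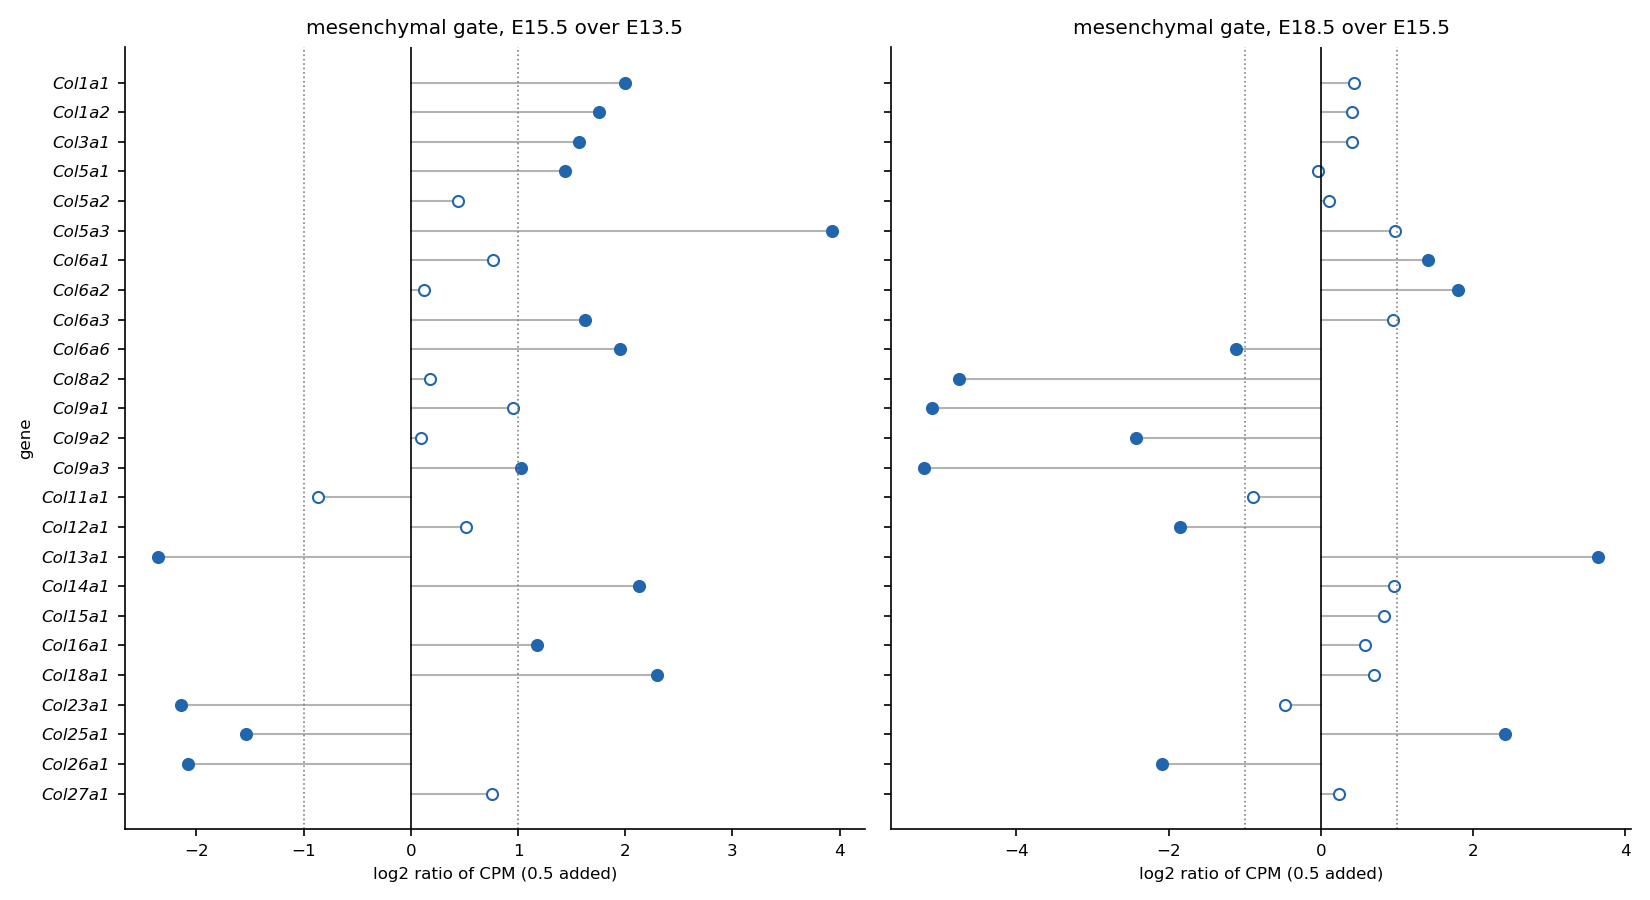
Log2 ratio of CPM in the mesenchymal gate (horizontal) for the members at 10 CPM or more (vertical), E15.5 over E13.5 and E18.5 over E15.5, with filled points for members called and dotted lines at a 2-fold difference. Col13a1 and Col25a1 lie to the left in the first comparison and to the right in the second, 12.98-fold and 5.60-fold in the latter.

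Enzymes that build collagen fibres were set beside them from lists chosen with earlier results of these data known. Over all genes, 11.5%, 14.6% and 16% were higher in mesenchymal cells at the successive ages and 11.7%, 11% and 14.5% in ECs. Of 4 procollagen cleavage genes at the level minimum 2 were higher in mesenchymal cells than in ECs at E13.5, 3 at E15.5 and 4 at E18.5. They included Adamts2, which removes the amino-terminal propeptide and stood at 1.43 CPM in ECs and 250 CPM in mesenchymal cells of E18.5, and Pcolce, an enhancer of carboxy-terminal cleavage (4.62 and 424 CPM). Of the cross-linking enzymes 2 of 3, 3 of 3 and 4 of 4 were higher in mesenchymal cells, and Lox stood at 27.0 and 391 CPM at E18.5. Of 18 hydroxylation and folding genes 5, 10 and 9 were higher in mesenchymal cells and 1, 0 and 0 in ECs, the 1 being Plod1 at E13.5 (92.4 and 44.6 CPM). Among 6 collagen receptors 2, 1 and 1 were higher in ECs and 3 in mesenchymal cells at each age. Itga2, an integrin chain that binds fibrillar collagen, stood at 58.6 CPM in ECs and 2.07 CPM in mesenchymal cells of E18.5, and the collagen receptor kinase Ddr2 at 1.43 and 77.9 CPM.

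Of the small proteoglycans and other fibre partners 5 of 6, 10 of 10 and 10 of 10 were higher in mesenchymal cells than in ECs. Between E13.5 and E15.5, 9 of 10 were higher in mesenchymal cells at E15.5, among them Dpt (3.37 and 101 CPM) and Aspn (17.8 and 165 CPM), together with 2 of 3 cross-linking and 2 of 4 cleavage genes and 5 of 18 folding genes, against 7% of all genes. Between E15.5 and E18.5 the numbers higher were 5 of 10, 1 of 4, 2 of 4 and 1 of 18, against 9.79% of all genes, and 1 of the 10 partners was lower (4.91% of all genes). Genes of collagen breakdown were higher in mesenchymal cells than in ECs for 2, 3 and 4 of 4 at the 3 ages.

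To see which cells of the whole lung hold each collagen, the E18.5 whole lungs were clustered without collagen genes into endothelial, epithelial, mesenchymal and immune classes, with 1691, 694, 4117 and 822 cells in the library labelled control and 2693, 512, 4794 and 901 in the library labelled null. Mesenchymal cells held 25 and 24 members at 10 CPM or more in the 2 libraries, against 27.3% and 26.9% of features, ECs 13 and 12 (26.5% and 26.1%), epithelial cells 12 and 12 (26.9% and 26.9%), and immune cells 13 and 13 (26.9% and 27.3%). The SoupX-adjusted values that the authors deposited, in which ambient RNA is subtracted, left 3 and 7 members at that level in ECs, 2 and 4 in epithelial cells and 5 and 10 in immune cells. The members summed to 612 CPM in epithelial cells of the library labelled control and to 156 CPM after adjustment, in ECs to 531 and 386 CPM.

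Among the named populations Col1a1 and Col3a1 were highest in mesothelial-like and then in adventitial fibroblast-like cells. Col1a1 was at 10803 CPM (library labelled control) and 14713 CPM (library labelled null) in mesothelial-like cells, of which there were 17 and 113, and at 2866 and 3662 CPM in adventitial fibroblast-like cells. Alveolar fibroblast-like cells held 1289 and 1440 CPM and myofibroblast-like cells 556 and 616 CPM. Col3a1 stood at 12333.5 and 11014 CPM in mesothelial-like, at 2278 and 2252 CPM in adventitial fibroblast-like and at 1954 and 2011 CPM in smooth muscle-like cells. Col14a1 was also highest in mesothelial-like cells, at 1566 and 1095 CPM. The 20 and 24 chondrocyte-like cells held the cartilage collagens, with Col2a1, the fibrillar collagen of cartilage, at 17048 and 17599 CPM, Col11a1 at 7005 and 5449 CPM, Col9a3 at 6606 and 6660 CPM, Col9a2 at 3518 and 3355 CPM and Col9a1 at 2729 and 3124 CPM. Col2a1 was the highest of these in both libraries.

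Other members were highest elsewhere. Col13a1 was highest in alveolar fibroblast-like cells (494 CPM in the library labelled control and 497 CPM in the library labelled null), as was Col25a1 (253 and 147 CPM). Col27a1, a fibrillar collagen of cartilage and other tissues, stood at 619 and 502 CPM in chondrocyte-like cells and at 106 and 174 CPM in myofibroblast-like cells, and Col16a1 at 387 and 386 CPM in chondrocyte-like cells. Col18a1, endothelial in the sorted libraries, was at 131 and 130 CPM in whole-lung ECs (337 and 255.3 CPM in the maEC2-like ones), at 126 and 123 CPM in alveolar fibroblast-like cells and at 608 and 438 CPM in the 34 and 38 Schwann cell-like cells. Col23a1 was at 183 and 158 CPM in secretory-like epithelial cells. In epithelial cells of the library labelled control Col18a1 and Col23a1 were the 2 members at 10 CPM or more after adjustment.

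Several members that missed 10 CPM in every class reached it in smaller populations. Of the 9, 6 did so. Col20a1 stood at 139 and 132 CPM in Schwann cell-like cells, Col8a1 at 30.9 and 69.9 CPM in chondrocyte-like cells, Col7a1, the anchoring fibril collagen, at 29.7 and 35.2 CPM in adventitial fibroblast-like cells, Col28a1 at 29.2 and 21.8 CPM in pericyte-like cells, and Col22a1, a collagen of tissue junctions, at 17.3 and 14.7 CPM in myofibroblast-like cells. Col17a1, known from hemidesmosomes of skin, stood at 15.1 and 2.70 CPM in adventitial fibroblast-like cells. Col6a5, Col10a1 and Col19a1 stayed under 10 CPM in every named population.

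**Figure D4:**
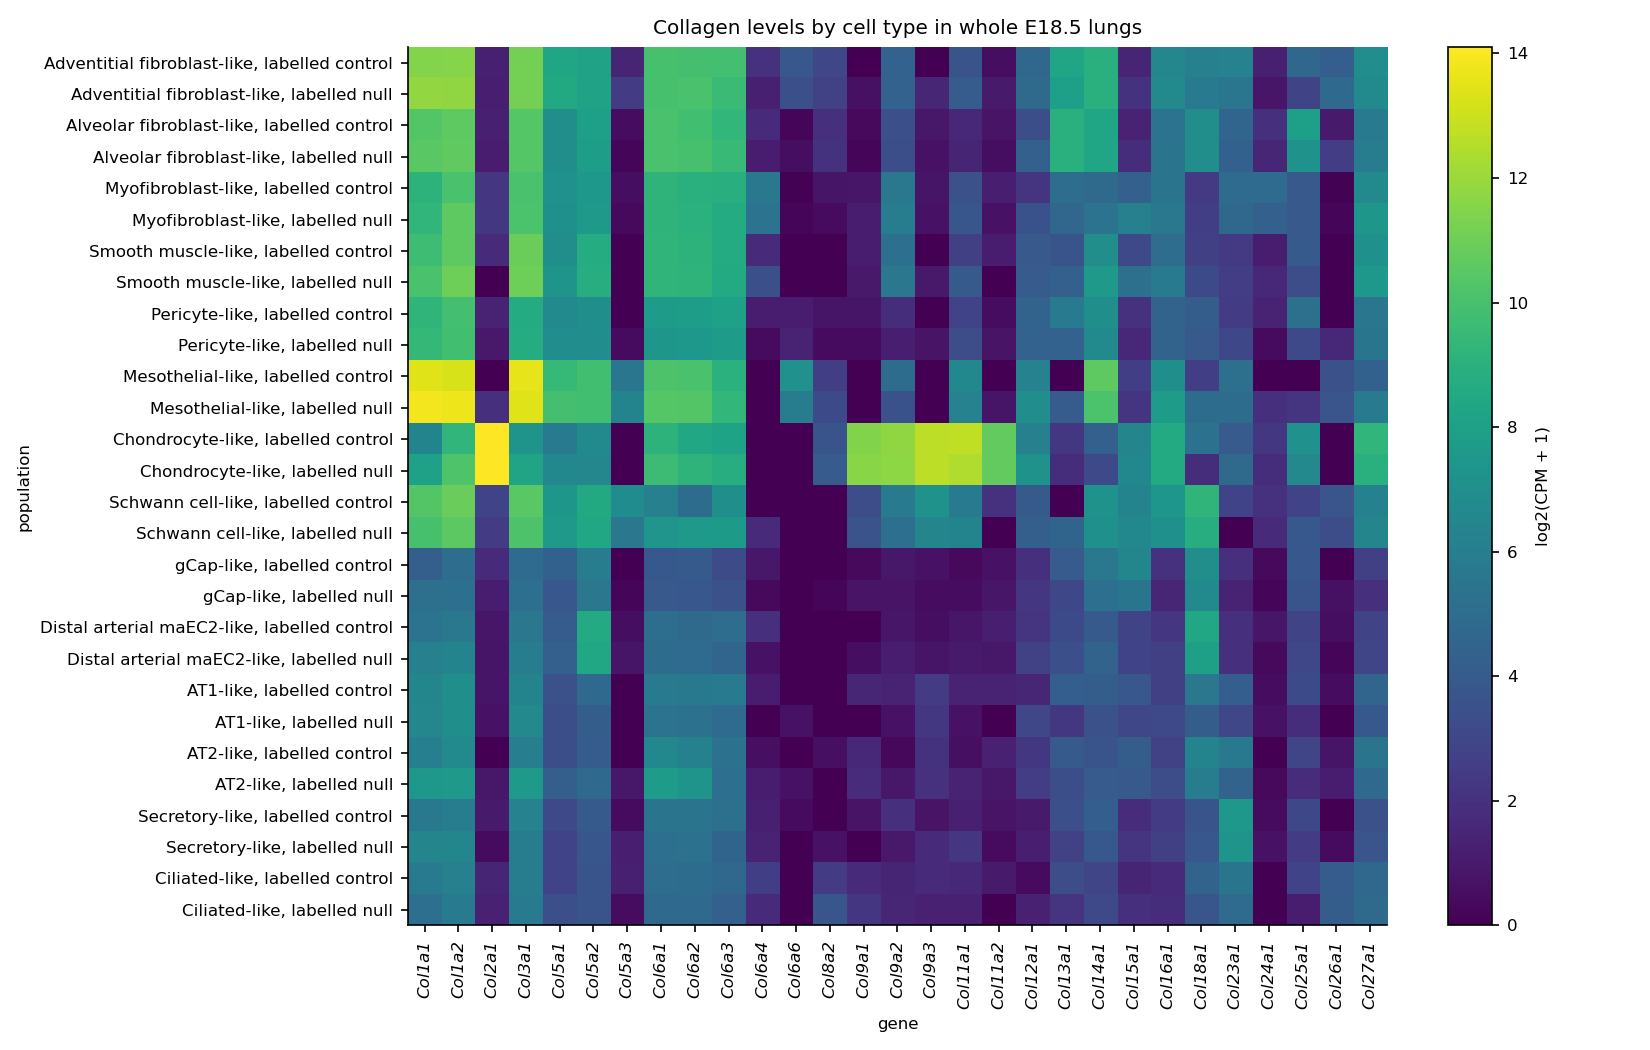
Heat map of log2(CPM + 1) for 29 members (columns) in 14 populations of the E18.5 whole lungs (rows), each with the library labelled control above the library labelled null. Chondrocyte-like cells stand out for Col2a1 (17048 and 17599 CPM) and mesothelial-like cells for Col1a1 (10803 and 14713 CPM).

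The library labelled null was then compared with the library labelled control. In mesenchymal cells 2 of 25 were called, against 1.07% of all genes at the level minimum, in ECs 2 of 13 (0.633%), in epithelial cells 1 of 13 (0.579%) and in immune cells 1 of 14 (1.19%). With SoupX-adjusted values 4 of 26 members were called in mesenchymal cells, 5 of 7 in ECs, 2 of 4 in epithelial and 8 of 10 in immune cells, against 4.31%, 6.87%, 10.8% and 8.37% of all genes. The adjustment was unequal, with 18.5% of UMIs removed in the library labelled null and 40.0% in the library labelled control. Its part in the adjusted differences here and below was not tested. The median log2 ratio of the members was 0.15 in mesenchymal cells, 0.28 in ECs, 0.02 in epithelial cells and 0.42 in immune cells. Given the Cxcl12 levels, which of the 2 libraries held the null lungs was not settled here, and each direction below would turn with the labels.

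Col15a1 in mesenchymal cells was at 27.7 CPM in the library labelled null and 10.1 CPM in the library labelled control, 2.75-fold (2.42 to 3.12), with SoupX-adjusted values of 29.7 and 7.60 CPM. Among the mesenchymal populations compared, it was called in myofibroblast-like and smooth muscle-like cells. Col15a1 stood at 70.0 against 18.7 CPM in myofibroblast-like cells, 3.74-fold (3.25 to 4.31), and at 35.6 against 7.57 CPM in smooth muscle-like cells (123 and 125 cells), 4.70-fold. The myofibroblast-like name pooled a cluster led by Lnx1, Gdf10 and Fgf18 (1425 against 1181 cells) with another led by Cpne7, Vsnl1 and Stc1 (504 against 788 cells). The part of this mixture in the difference was not tested. In ECs Col15a1 was lower in the library labelled null, at 33.7 against 60.9 CPM, short of a call, and at 34.3 against 84.9 CPM after adjustment, where it was called. The endothelial class differed in makeup, with 703 of 2693 maEC2-like cells against 276 of 1691, and 186 against 229 cells of an unnamed cluster led by Fabp4, Rbp7, Thrsp and Cd300lg that best matched the systemic-type capillary list. Col15a1 stood at 43.0 against 86.3 CPM in gCap-like, 39.3 against 64.7 CPM in proliferating-like and 6.06 against 6.29 CPM in maEC2-like ECs. None of these was called before adjustment, but the gCap-like difference lay at the 2-fold limit and missed a call only through the pseudocount. The part of the makeup in the class difference was not tested.

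Col25a1 in mesenchymal cells was at 49.5 CPM in the library labelled null and 100 CPM in the library labelled control, 2.03-fold (1.92 to 2.14) lower, and at 54.8 and 143 CPM after adjustment. The call was marginal, since the log2 ratio of -1.01 became -0.997 without Scrublet doublets, -0.97 under the UMI gates and -0.95 with a pseudocount of 5 CPM, none of which was called. It was lower in adventitial fibroblast-like cells (6.41 against 26.2 CPM, 4.08-fold), pericyte-like cells (7.81 against 36.4 CPM, 4.67-fold) and proliferating-like cells (24.6 against 63.4 CPM). In alveolar fibroblast-like cells, its main source, the values of 147 and 253 CPM were under 2-fold apart. None of 16 members was called in alveolar fibroblast-like cells, where 0.542% of all genes were. The shares called over all genes were 1.28% in adventitial fibroblast-like, 0.987% in myofibroblast-like, 2.33% in pericyte-like, 7.05% in proliferating-like and 6.06% in smooth muscle-like cells.

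**Figure D5:**
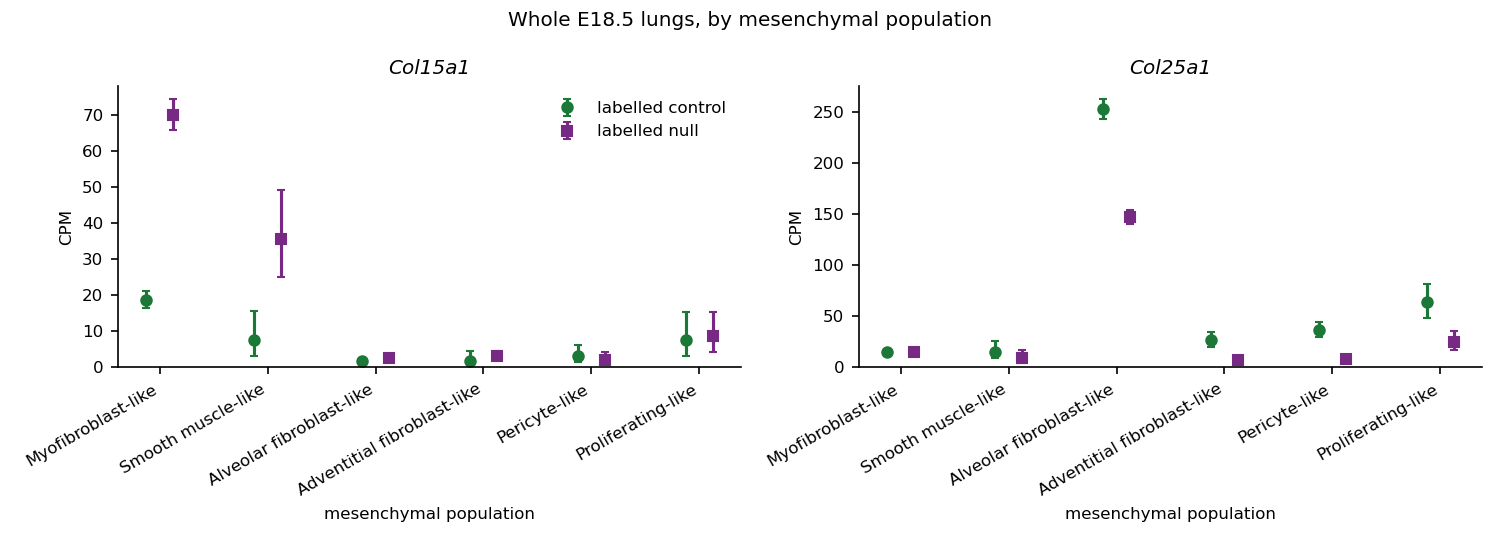
CPM (vertical) of Col15a1 and Col25a1 in 6 mesenchymal populations of the whole lungs (horizontal), green for the library labelled control and purple for the library labelled null, with bars for 95% Poisson intervals. Col15a1 is higher in myofibroblast-like cells of the library labelled null (70.0 against 18.7 CPM), and Col25a1 is lower in its alveolar fibroblast-like cells (147 against 253 CPM).

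Col1a1 and Col1a2 in whole-lung ECs were called higher in the library labelled null, at 69.4 against 26.3 CPM for Col1a1 (2.64-fold, 2.37 to 2.95) and 83.9 against 37.0 CPM for Col1a2 (2.27-fold). Both were still called after adjustment (Col1a1 at 31.7 against 3.14 CPM), but neither was once Scrublet doublets were left out or the UMI gates replaced the clusters. Within named endothelial populations Col1a1 was not called before adjustment, at 35.7 against 18.2 CPM in gCap-like ECs (17.3 against 1.76 CPM after it, called), 77.6 against 47.5 CPM in proliferating-like and 70.3 against 40.7 CPM in maEC2-like ECs. The list of 20 mesenchymal markers summed to 940 CPM in ECs of the library labelled null and 782 CPM in those of the library labelled control, and to 704 and 652 CPM after adjustment. Col1a1 in immune cells was likewise higher, at 249 against 112 CPM (2.21-fold, but 0.93 on the log2 scale and not called without Scrublet doublets), where the markers summed to 1251 and 1041 CPM. After adjustment it was at 135 against 6.36 CPM and the markers summed to 668 and 246 CPM. Their part in these differences was not tested.

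Over the mesenchymal class Col1a1 was at 1977 CPM in the library labelled null and 1072 CPM in the library labelled control, and Col1a2 at 2320 and 1436 CPM, both under 2-fold apart. The classes differed in makeup, with 956 against 307 adventitial fibroblast-like and 113 against 17 mesothelial-like cells. Within adventitial, alveolar and myofibroblast-like cells Col1a1 was closer between the libraries, as given above. The part of this makeup in the differences of the mesenchymal class was not tested. Col3a1 stood at 1702 and 1296 CPM, Col5a2 at 250 and 225 CPM, Col6a1 at 807 and 738 CPM, Col6a3 at 571 and 536 CPM, Col13a1 at 204 and 213 CPM and Col2a1 at 160 and 143 CPM. Among partner genes Pcolce (201 and 84.4 CPM), Dcn (205 and 58.2 CPM), Lum (32.9 and 10.7 CPM) and Tnxb (15.7 and 6.11 CPM) were 2-fold higher in the class of the library labelled null, 1 of 5 cleavage genes and 3 of 10 proteoglycans and partners, against 1.07% of all genes in either direction. Dcn, Lum and Tnxb were among the leading genes of the mesothelial-like cells, and the part of the makeup was not tested here either.

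Epithelial members differed within the alveolar populations. In AT1-like cells (108 in the library labelled null and 228 in the library labelled control) Col18a1 stood at 16.5 against 47.8 CPM and Col23a1 at 6.999 against 17.6 CPM, and 3 of 14 members were called, all lower in the library labelled null, against 4.65% of all genes. In AT2-like cells 5 of 14 were called, 4 higher and 1 lower, against 1.65% of all genes, and Col6a1 was at 218 against 93.9 CPM, Col6a2 at 155 against 71.7 CPM and Col23a1 at 21.6 against 51.4 CPM. After adjustment Col6a1 in AT2-like cells was at 127 CPM in the library labelled null and 0 in the library labelled control. In the latter, where more UMIs were removed, adjustment left Col1a1, Col1a2, Col3a1 and Col6a1 at 0 over the whole epithelial class. Of the calls above, 2 in AT1-like and 3 in AT2-like cells were also made after adjustment. The mesenchymal markers summed to 2061 and 1951 CPM in the epithelial class and to 1837 and 1876 CPM after adjustment. The members summed to 714 and 612 CPM there, and to 190 and 156 CPM after adjustment. Most of the marker sum was thus not removed by the adjustment, unlike most of the member sum. Over the marker list the median ratio of epithelial to mesenchymal cells was 0.0652 (library labelled null) and 0.0620 (library labelled control) before adjustment. Which markers held the sum, and whether epithelial cells express some of them, was not tested. The part of mesenchymal RNA in these differences was not tested. Col13a1, the epithelial member called before adjustment (5.997 against 12.9 CPM), was not called after it.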

How the data were processed

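Lungs were dissociated with collagenase I and dispase, and 16500 cells per library were loaded on 10x 3′ v3 chemistry for a target of 10000. The authors deposited whole-number UMI counts from Cell Ranger 3.1 against mm10 (the file headers name 3.0.2 and 3.1.0), and for whole lungs also expected counts, in which SoupX had removed 18.5% of UMIs in the library labelled null and 40.0% in the library labelled control. These labels disagree with Cxcl12 and with the names of the deposited files.

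Cells with 700 or more genes and 0.5 to 10% mitochondrial UMIs were kept. UMIs were summed per gate, class or population and divided by the population's total (CPM). Because each UMI stands for a 3′ end, levels were not divided by transcript length. Ratios used a pseudocount of 0.5 CPM on the log2 scale, and a member was called at a 2-fold difference with 10 CPM in either population. With 1 library per group no p-value was computed, and 95% intervals (exact Poisson, or exact conditional for ratios) cover counting error only. The paper describes the sorted cells of each age as from a mixture of lungs. For the whole lungs it names cells from more than 1 lung per genotype. Populations under 50 cells gave no ratio. Clustering left out every collagen gene and used 3000 variable genes, Pearson residuals (theta 100, mitochondrial share regressed), 25 components for sorted and 20 for whole-lung libraries, 20 neighbours and Louvain resolution 0.8. Names ending in "-like" rest on marker lists, and a different naming could change a population's level. Doublets were scored with Scrublet at an expected 8% and left out as an alternative only. At E18.5 and P8 of the sorted libraries its automatic threshold marked under 0.5% of cells, and the highest 8% of scores were used there.

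The members, lists and alternatives were chosen with earlier results of these data known. Members were described with values at 50 CPM in ECs, 100 CPM in mesenchymal cells or 100 CPM in a whole-lung class (16 members; the other 22 reached at most 91.7 CPM). The 3 largest ratios in each direction of a comparison were also named, as were up to 3 genes of each partner list. Col20a1, Col8a1, Col7a1, Col28a1, Col22a1 and Col17a1, the levels in named populations and the cells outside both gates were chosen after their values were seen. In data simulated from the libraries' own levels, all of 200 genes changed 4-fold were called (100%) in each of 3 comparisons, and 0 to 0.383% of unchanged genes were. The simulation held counting error only, in genes of 10 CPM or more, with changes well past the 2-fold limit. It held no variation between libraries, animals or cell mixtures, so it cannot show how reliable a call between groups is. Analyses used Python 3.11.15, numpy 2.4.6, scipy 1.17.1, pandas 2.3.3, scanpy 1.11.5, python-igraph 0.11.9, scikit-learn 1.9.0 and matplotlib 3.10.9.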

Additional observations from a re-analysis of the deposited data

Results flagged for a closer look

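Col1a1, Col3a1, Col5a1 and Col6a3 went opposite ways in the 2 gates between E13.5 and E15.5. On the log2 scale of E15.5 over E13.5, Col1a1 was -1.31 in ECs and 2.0 in mesenchymal cells, Col3a1 -1.24 and 1.57, Col5a1 -1.05 and 1.44, and Col6a3 -1.32 and 1.63. With 1 library per age the difference between the gates was not tested, and the endothelial values at E13.5 rest on 187 cells. Col11a1 was lower at E15.5 in both gates, at 19.2 and 1.06 CPM in ECs and 87.4 and 47.6 CPM in mesenchymal cells. The 9 endothelial calls of this step became 3 without Scrublet doublets.

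Col12a1, a fibril-associated collagen, stood at 37.9 CPM (26.9 to 51.7, 39 UMIs) in the 179 cells of P8 that neither gate took, a set of cells outside the comparisons above. In the same library it was at 2.70 CPM in ECs and at 11.9 CPM in the 40 mesenchymal cells.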

How the results depend on the processing

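No paired analysis was possible because each group is 1 library. Of 203 counts of members recomputed under alternatives, 168 stayed within 1.5 times the main count and 35 moved. Of 1014 log2 ratios of single members, 727 stayed within the counting interval, 287 moved and 64 changed side of the 2-fold limit. Among the ratios called in the main setting 0 changed sign. Changes of sign in uncalled ratios were not counted. The UMI gates give no value for epithelial and immune classes. The cause of a move was not tested.

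With SoupX-adjusted values, members at 10 CPM fell from 13 to 3 in ECs, 12 to 2 in epithelial and 13 to 5 in immune cells of the library labelled control, and from 12 to 7 and 12 to 4 in ECs and epithelial cells of the library labelled null. Members called between the libraries went from 2 to 5 in ECs, 1 to 2 in epithelial, 1 to 8 in immune and 2 to 4 in mesenchymal cells. The 2 endothelial calls became 1 with 15 components, 0 without Scrublet doublets and 0 under the UMI gates. The 1 epithelial call became 2 without doublets, and 0 with at least 1000 genes per cell, a 50 CPM minimum, a pseudocount of 5 CPM, resolution 0.4 or seed 2. The 2 mesenchymal calls became 1 at 50 CPM and 1 with a pseudocount of 5 CPM.

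Without Scrublet doublets, members at 10 CPM in E13.5 ECs went from 13 to 7 and calls of E15.5 over E13.5 from 9 to 3. Without ECs holding a UMI of Dcn, Lum, Ogn or Postn, an alternative added after seeing the data, the 13 members at E13.5 became 7, the 8 at E15.5 became 5, the 9 calls of E15.5 over E13.5 became 4 and the 5 of P8 over E15.5 became 3. Without the clusters holding these genes, also added, the 8 members at E15.5 and the 8 at E18.5 became 5 each, and the 5 calls of P8 over E15.5 became 3. At a minimum of 50 CPM, endothelial calls of E15.5 over E13.5 went from 9 to 2 and of P8 over E18.5 from 6 to 1, calls of ECs over mesenchymal cells from 22 to 14 at E13.5 and 24 to 14 at E15.5, and mesenchymal calls of E18.5 over E15.5 from 11 to 5. A mesenchymal gate of 2 UMIs gave 17 of the latter, and leaving out the E15.5 cluster of heart muscle genes, also added, 14.

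Depth limits the smallest populations most: 3 UMIs equal 2.05 CPM in E13.5 ECs and 2.07 CPM in E18.5 mesenchymal cells, but 0.0325 CPM in E15.5 ECs. Levels of lowly expressed members in the former cannot be compared finely with the latter.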
